A study of Mus musculus with 8 samples.

Results

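The transcripts described here are 10 genes of actin filament turnover in mouse platelets, taken by symbol from the 43548 genes of the table: Actb, Actg1, Tmsb4x, Pfn1, Cfl1, Gm6180, Gsn, Wdr1, Tagln2 and Capzb. The genes were chosen with earlier results from these libraries known. Gm6180, a close copy of Cfl1, was chosen for its difference between the genotypes, so its values and those of its sum with Cfl1 are a description without a test. All 10 symbols were found, and 9 had a mean of at least 1 FPKM (fragments per kilobase of transcript, scaled to the mapped fragments of the library) over the 8 mice, the level above which genes were tested. Wdr1, with a mean of 0.990 FPKM, fell just below it.

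RNA of washed platelets was sequenced from 4 TNFdARE mice and 4 littermates as controls, to find transcripts that differ under inflammation driven by TNF-α. TNFdARE mice, labelled TNFdAre +, carry a deletion of the AU-rich element of Tnf in every cell, make more TNF-α, and were backcrossed to C57BL/6J. Control mice, labelled TNFdAre -, do not carry it. All were at baseline, aged 8 to 12 weeks, with 2 females and 2 males in each group. Parts of the sample descriptions contradict this, with 3 mice per group in one place and male mice of 5.2 months in another. Each library came from a separate mouse.

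Actin exists as monomers and as filaments, and platelets change shape, spread and retract clots by moving actin from one form to the other. Thymosin β4 and profilin bind the monomers, cofilin and its partner WDR1 take filaments apart, gelsolin cuts and caps them, and capping protein closes the fast-growing end. Platelets have no nucleus and carry RNA received from megakaryocytes.

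The read depth of the libraries is unknown, and they were unequal. Genes above 0 ranged from 1479 to 2742 in control and from 818 to 4917 in TNFdARE libraries, with the fewest in TNFdARE mouse 1 and, after it, TNFdARE mouse 4 at 1225. The 10 actin genes held 1.21% to 1.95% of the summed FPKM in control and 0.601% to 1.80% in TNFdARE libraries. The lowest share was in TNFdARE mouse 1, where 1 abundant gene, AY036118, held 67.7% of the total. Without that gene the shares were 2.31% to 3.10% and 1.86% to 3.08%. The tissue label was checked against its markers, and 14 of 15 platelet and megakaryocyte genes were above 0 in all 8 libraries, with summed levels of 1231 to 1739 FPKM in control and 1180 to 1316 FPKM in TNFdARE mice. Of 9 erythroid markers in the table, Klf1 and Rhag were at 0 in every library, and the summed level ran from 748 to 2196 FPKM in control and from 1105 to 14640 FPKM in TNFdARE mice. It was highest in TNFdARE mice 4 and 1, at 14640 and 6912 FPKM, the libraries with the fewest genes above 0. The neutrophil list summed to 0 to 3.66 FPKM in control and 0 to 10.3 FPKM in TNFdARE mice, with Camp, Cxcr2, Ltf, Retnlg and S100a8 (5 of 10) at 0 throughout. The B cell list stayed at or below 0.134 FPKM, with Cd79a, Cd79b, Fcer2a and Ms4a1 at 0, and the T cell list at or below 1.45 FPKM, with Cd3d, Cd3e and Cd5 at 0. Markers of monocytes and macrophages summed to 30.8 to 50.8 FPKM in control and 12.0 to 36.1 FPKM in TNFdARE mice, with Ccr2, Cd14, Cd68 and Ly6c2 at 0. The part of these markers and of library complexity in the values below was not tested. In bulk RNA, fewer cells of a type and less RNA per cell cannot be told apart.

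**Figure D1:**
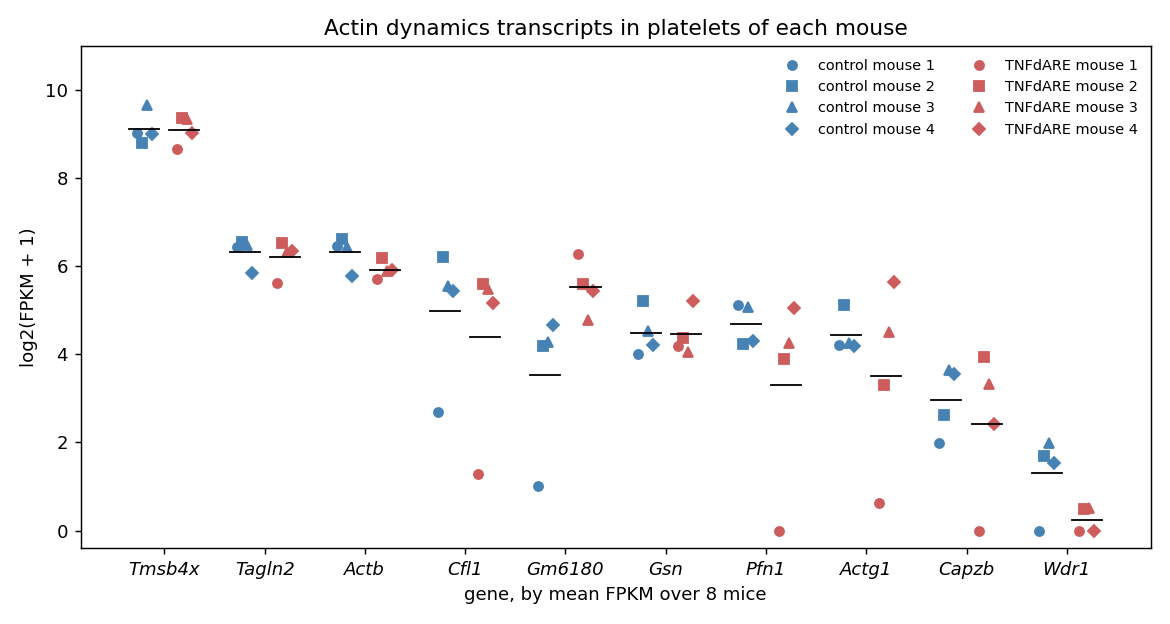
Level of each actin gene, as log2(FPKM + 1), in platelets of each of 4 control and 4 TNFdARE mice, with genes ordered by their mean FPKM and horizontal lines at the group means. Tmsb4x lay above every other gene in all 8 mice, and most of the lowest points belonged to TNFdARE mouse 1 and control mouse 1.

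The levels spanned a wide range. Tmsb4x, with a mean of 564 FPKM, stood 10th among all genes of the table, followed by Tagln2 at 77.9, Actb at 70.7, Cfl1 at 36.8, Gm6180 at 31.8, Gsn at 22.4, Pfn1 at 20.9, Actg1 at 20.8, Capzb at 7.27 and Wdr1 at 0.990 FPKM. FPKM is scaled to transcript length, so levels are set side by side between genes on that scale, as far as the inferred unit holds. Tmsb4x exceeded Tagln2 in 8 of 8 mice, and Actb exceeded Cfl1 in 8 of 8. Other neighbours could not be put in order beyond the spread between mice. Tagln2 exceeded Actb in 5 of 8 mice, Gm6180 exceeded Gsn in 5, Gsn exceeded Pfn1 in 4 and Pfn1 exceeded Actg1 in 4. Actg1 exceeded Capzb in 7 mice, and Capzb exceeded Wdr1 in 7, with both listed at 0 in TNFdARE mouse 1. Hprt and Gapdh, which most cells express, were listed at 0 in 8 and 5 of the libraries, so a 0 does not show absence.

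Actb (ENSMUSG00000029580, GRCm38 chr5:142903115-142906754, minus strand) encodes β-actin, the main actin of platelets. Its level was 87.3, 97.3, 86.0 and 54.1 FPKM in control mice 1 to 4 and 51.1, 72.0, 57.9 and 59.5 FPKM in TNFdARE mice 1 to 4. The group means were 81.2 ± 18.7 and 60.1 ± 8.69 FPKM (SD, n = 4 each). Control mice 1 to 3 lay above every TNFdARE mouse, and control mouse 4 lay among them, so the groups overlapped. On the log2(FPKM + 1) scale, the difference of TNFdARE minus control was -0.40 (SE 0.41, 95% confidence interval -1.28 to 0.47, adjusted p = 0.86 by limma with Benjamini-Hochberg adjustment over 1534 genes). Over all 1534 genes the median difference was -0.30, and quantile normalization, which moved that median to -0.06, left Actb at -0.28.

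Actg1 (ENSMUSG00000062825, chr11:120345690-120348542, minus strand) encodes γ-actin, the other cytoplasmic actin. Its level was 17.5, 34.0, 18.2 and 17.2 FPKM in control mice and 0.536, 8.82, 21.7 and 48.6 FPKM in TNFdARE mice. The TNFdARE mice held both the lowest and the highest value, a 90.6-fold range over the 8 libraries, against a 1.90-fold range for Actb. Its log2 difference was -0.93 (SE 0.89, interval -2.85 to 0.98, adjusted p = 0.86 by limma) and rested on TNFdARE mouse 1, without which it was 0.03. The coding regions of Actb and Actg1, both 1125 bases without the stop codon, were 88.6% identical, with no identical run above 62 bases and 4 of 375 codons that differ in the amino acid. Reads of 150 bases within the coding region could thus in principle be told apart between these genes.

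This held only in part between Actg1 and its processed pseudogenes, which are copies of its spliced mRNA placed elsewhere in the genome. Of 7 copies found at 95% identity or more, 3 were in the table. Gm12715 (ENSMUSG00000059195, chr4:103563402-103564529, plus strand), a copy of the 1128 bases of the Actg1 coding region with its stop codon, differed from it at 4 positions, counted from 1 at the 5′ end of the copy and written with the Actg1 base first: T858C, G861T, T864C and G1002A. Of the 979 stretches of 150 bases in the copy, 708 (72.3%) were identical in Actg1, and the longest identical run was 857 bases. The stretch below, at positions 847 to 876 of the coding region, is shown because it holds 3 of the 4 differences, in capitals, and so is where a read could tell the genes apart. In Gm12715 it lies at chr4:103564248-103564277.
Actg1: atgaagtgtgaTgtGgaTatccgcaaagac
Gm12715: atgaagtgtgaCgtTgaCatccgcaaagac

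Most of the value assigned to this family stood on the copy. Control mice 1 to 4 had 125, 126, 71.8 and 79.1 FPKM on Gm12715, while TNFdARE mice had 11.4, 115, 85.6 and 161 FPKM, above Actg1 in 8 of 8 mice. In a second copy, Gm8399 (chr13:81064684-81065800), 235 of 968 stretches of 150 bases (24.3%) were identical in Actg1. Gm8399 had a mean of 13.4 FPKM, and Actg-ps1 (chr8:46228994-46230117), at 0 in the 4 control mice and in TNFdARE mouse 1, had a mean of 1.39 FPKM. Actg1 with these copies came to 163, 175, 108 and 103 FPKM in control mice and to 12.2, 146, 120 and 233 FPKM in TNFdARE mice, of which Actg1 itself held 4.41% to 20.8%. TNFdARE mouse 1 was low and TNFdARE mouse 4 high with or without the copies. The log2 difference of the sum was -0.64, and without TNFdARE mouse 1 it was 0.26. FPKM of transcripts of unequal length do not add strictly, since the Actg1 transcript has 1952 bases and Gm12715 has 1128.

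The order of the cytoplasmic actins depended on where these values were counted. Actb alone exceeded Actg1 alone in 8 of 8 mice. Actg1 with its copies exceeded Actb with its copies in 7 of 8 mice, TNFdARE mouse 1 being the exception. In control mouse 3 the sums were nearly equal, at 108 and 107 FPKM, and neither sum is a strict total. The Actb copies were less alike and held less. Gm15725 (chr16:37882542-37883631) matched Actb at 95.8% over 767 bases and was at 0.302, 0.326, 9.66 and 3.64 FPKM in control mice and 32.1, 2.18, 5.13 and 19.2 FPKM in TNFdARE mice. Gm4750 and Gm8464, on chromosome X, matched over 155 bases and had means of 1.72 and 1.10 FPKM. Actb with its copies came to 87.6, 97.6, 107 and 58.5 FPKM in control mice and 83.5, 80.8, 65.9 and 79.0 FPKM in TNFdARE mice, with a log2 difference of -0.15 against -0.40 for Actb alone.

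**Figure D2:**
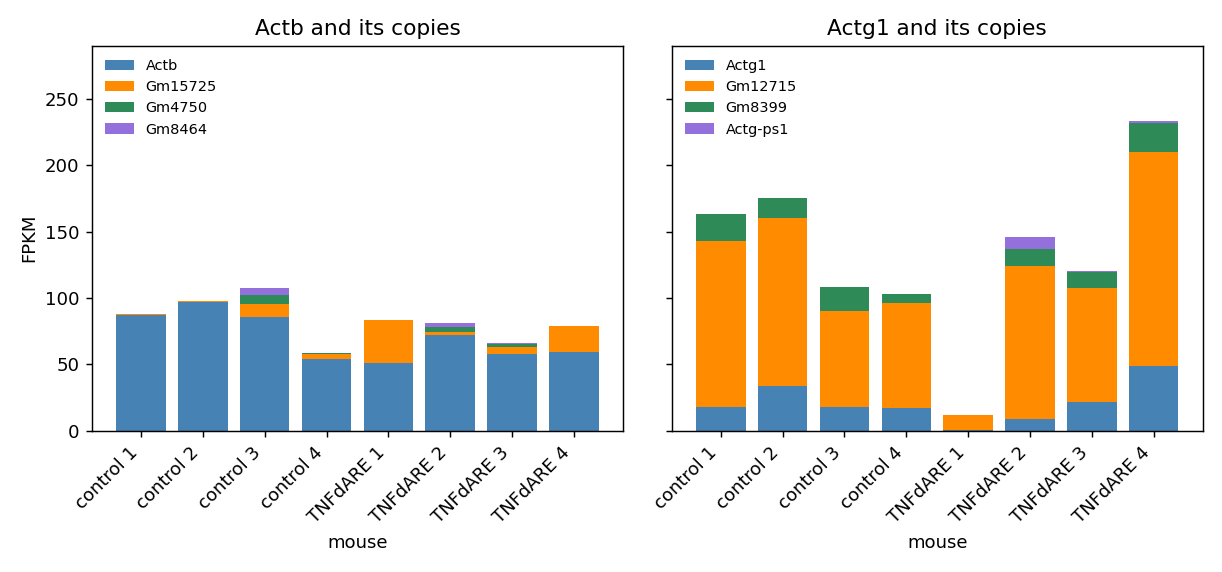
FPKM of Actb (left) and Actg1 (right) in each mouse, stacked with the FPKM of their copies that are in the table. The bar for Gm12715 is taller than that for Actg1 in all 8 mice, and the sum for Actg1 is 12.2 FPKM in TNFdARE mouse 1 and 233 FPKM in TNFdARE mouse 4.

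Among the proteins that bind actin monomers, Tmsb4x (ENSMUSG00000049775, chrX:167207093-167209315, minus strand) encodes thymosin β4, which holds monomers in reserve. It was at 522, 443, 806 and 508 FPKM in control mice and 403, 661, 650 and 517 FPKM in TNFdARE mice, or 570 ± 162 and 558 ± 122 FPKM (SD, n = 4 each). The groups overlapped throughout, with the lowest value in TNFdARE mouse 1 and the highest in control mouse 3. The log2 difference was -0.02 (SE 0.32, interval -0.72 to 0.68, adjusted p = 1.00 by limma) as deposited, -0.39 after quantile normalization and 0.04 after median-of-ratios scaling. Within each library, Tmsb4x was 4.55 to 9.38 times Actb in control mice and 7.89 to 11.2 times in TNFdARE mice.

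Pfn1 (ENSMUSG00000018293, chr11:70651850-70654644, minus strand) encodes profilin-1, which delivers monomers to growing filament ends. It was at 33.6, 17.8, 32.7 and 18.7 FPKM in control mice and 13.9, 18.2 and 32.3 FPKM in TNFdARE mice 2 to 4, and was listed at 0 in TNFdARE mouse 1. Apart from that 0, TNFdARE mouse 2 alone lay below the control mice. Profilin-1 had a log2 difference of -1.38 (SE 0.92, interval -3.35 to 0.60, adjusted p = 0.86 by limma), the most negative value among the tested actin genes, which was -0.28 without TNFdARE mouse 1. No other transcript of the annotation matched Pfn1 or Tmsb4x at 95% identity.

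Cofilin-1, encoded by Cfl1 (ENSMUSG00000056201, chr19:5490455-5495201, plus strand), binds the sides of filaments and severs them. Gm6180 (ENSMUSG00000053038, chr8:42246911-42247408, plus strand) is annotated as a processed pseudogene without introns, and its 498 bases copy the Cfl1 coding region from the start codon up to the stop codon, which the annotated span leaves out. The sequences were 98.8% identical and differed at 6 positions, counted from 1 at the 5′ end of Gm6180 with the Cfl1 base first: G105A, G186T, C241T, C333T, G437A and C471G. These are spaced so that the longest identical run was 104 bases, and 0 of 349 stretches of 150 bases in Gm6180 were identical in Cfl1. A read of 150 bases that lies wholly within Gm6180 therefore crosses at least 1 difference, unlike most such reads of Gm12715. Each stretch below is centred on a difference, in capitals, at positions 227 to 256 (chr8:42247137-42247166) and 423 to 452 (chr8:42247333-42247362), because such single bases are what tells the transcripts apart.
Cfl1, positions 227 to 256: cagacaaggactgcCgctatgcactctatg
Gm6180, positions 227 to 256: cagacaaggactgcTgctatgcactctatg
Cfl1, positions 423 to 452: ggaggtcaaggaccGctgcaccctggcaga
Gm6180, positions 423 to 452: ggaggtcaaggaccActgcaccctggcaga

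Cfl1 was at 5.48, 73.3, 45.7 and 42.3 FPKM in control mice and 1.44, 47.5, 44.1 and 34.8 FPKM in TNFdARE mice. Control mouse 1 and TNFdARE mouse 1 were far below the rest, and the other 6 mice lay between 34.8 and 73.3 FPKM. The log2 difference of Cfl1 was -0.59 (SE 0.98, interval -2.72 to 1.54, adjusted p = 0.89 by limma) and 0.44 without TNFdARE mouse 1.

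Gm6180 was at 1.02, 17.2, 18.5 and 24.5 FPKM in control mice and 76.0, 47.6, 26.7 and 42.6 FPKM in TNFdARE mice. Every TNFdARE mouse lay above every control mouse, by 2.12 FPKM at the nearest, between control mouse 4 and TNFdARE mouse 3. Groups that did not overlap were found for 51 of all 1534 tested genes (3.32%), and Gm6180 was chosen for this difference. In control mice Cfl1 exceeded Gm6180 in 4 of 4, and in TNFdARE mice in 1 of 4. The values that set Gm6180 apart most came from the same libraries that were low in Cfl1: control mouse 1 held its lowest value and TNFdARE mouse 1 its highest.

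The sum of Cfl1 and Gm6180 was 6.51, 90.5, 64.2 and 66.9 FPKM in control mice and 77.5, 95.1, 70.7 and 77.4 FPKM in TNFdARE mice. The groups overlapped, and 7 of the 8 sums lay between 64.2 and 95.1 FPKM, with control mouse 1 below them. In log2 terms, the groups differed by 0.95 for the sum (SE 0.84) against 1.99 for Gm6180 alone, and without control mouse 1 these were 0.12 and 1.14. The sum joins values for transcripts of 498 and up to 2354 bases and is not a strict total. Gm6180 made up 15.7%, 19.0%, 28.8% and 36.7% of the sum in control mice and 98.1%, 50.1%, 37.7% and 55.0% in TNFdARE mice. The highest control share and the lowest TNFdARE share, 36.7% and 37.7%, were close together. Leaving out mouse 1 of each group, the library with the fewest genes above 0 in its group, put the sum at 73.9 ± 14.5 and 81.1 ± 12.6 FPKM and the share at 28.2 ± 8.87% and 47.6 ± 8.91% (SD, n = 3 each). How the authors assigned reads that fit both genes is not given in the sources used here, and its part in the split was not tested.

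**Figure D3:**
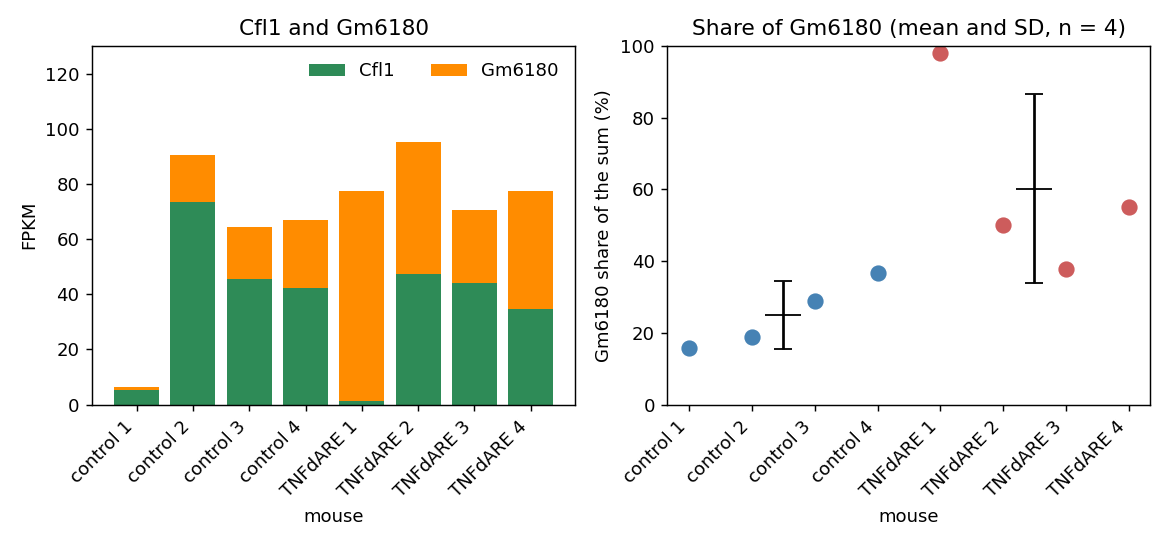
Left, FPKM of Cfl1 and Gm6180 stacked for each mouse. Right, the share of Gm6180 in their sum for each mouse, with the group mean and SD (n = 4). The sums overlap between the groups apart from control mouse 1 at 6.51 FPKM, while the share runs from 15.7% to 36.7% in control and from 37.7% to 98.1% in TNFdARE mice.

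Wdr1 (ENSMUSG00000005103, chr5:38526813-38563221, minus strand) encodes the partner of cofilin that speeds filament disassembly. It was at 2.26, 2.96 and 1.88 FPKM in control mice 2 to 4, had 0.402 and 0.427 FPKM in TNFdARE mice 2 and 3, and was listed at 0 in control mouse 1 and in TNFdARE mice 1 and 4. Where it was above 0, control mice were higher than TNFdARE mice, but the 0 in control mouse 1 made the groups overlap. Its log2 difference was -1.05, and it was -2.27 when 0.1 and -0.36 when 5 in place of 1 was added to each value. Without the filter on the mean, when 6566 genes were tested, its SE was 0.52, its interval -2.21 to 0.10 and its adjusted p 0.61 by limma. The 3 libraries with a 0 were also the 3 with the fewest genes above 0.

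Gsn (ENSMUSG00000026879, chr2:35256380-35307892, plus strand) encodes gelsolin, which severs filaments in the presence of calcium and caps the new ends. It was at 15.2, 35.9, 22.0 and 17.5 FPKM in control mice and 17.4, 19.8, 15.7 and 35.9 FPKM in TNFdARE mice, with a mean of 22.7 ± 9.25 and 22.2 ± 9.29 FPKM (SD, n = 4 each). Each group had 1 mouse at 35.9 FPKM and 3 between 15.2 and 22.0 FPKM. The log2 difference was -0.03 (SE 0.52, interval -1.14 to 1.09, adjusted p = 1.00 by limma) and changed sign with quantile normalization, to 0.12, and with median-of-ratios scaling, to 0.04.

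Capzb (ENSMUSG00000028745, chr4:139192899-139291818, plus strand) encodes the β subunit of capping protein. It was at 3.00, 5.17, 11.6 and 10.8 FPKM in control mice and 14.3, 8.98 and 4.35 FPKM in TNFdARE mice 2 to 4, and was listed at 0 in TNFdARE mouse 1. Its log2 difference was -0.54 (SE 0.85, interval -2.36 to 1.28, adjusted p = 0.89 by limma) and 0.27 without TNFdARE mouse 1.

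Tagln2 (ENSMUSG00000026547, chr1:172500047-172507380, plus strand) encodes transgelin-2, which binds and stabilizes filaments. It was at 85.6, 92.4, 89.1 and 56.9 FPKM in control mice and 47.9, 91.8, 79.1 and 80.2 FPKM in TNFdARE mice. The log2 difference was -0.13 (SE 0.41, interval -1.02 to 0.76, adjusted p = 0.95 by limma), and the groups overlapped. Tagln2 stayed close to Actb within libraries. The ratio of Tagln2 to Actb was 0.981, 0.950, 1.04 and 1.05 in control mice and 0.938, 1.28, 1.37 and 1.35 in TNFdARE mice, where 3 of 4 lay above every control mouse and TNFdARE mouse 1 lay below them. By contrast, the ratio of Actg1 to Actb ran from 0.201 to 0.349 in control and from 0.0105 to 0.817 in TNFdARE mice.

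Read over the tested genes, the genotype comparison called 69 of 1534 genes at an unadjusted p under 0.05 (4.5%), 27 with a positive and 42 with a negative difference, and 0 (0%) at an adjusted p under 0.05, where the smallest was 0.86. Leaving aside Gm6180, which was chosen for this difference and is not counted, 0 of the other 8 actin genes in the fit had an unadjusted p under 0.05 by limma. None of these 8 had groups that did not overlap, against 51 of all tested genes (3.32%). All 8 had a negative log2 difference as deposited, but this rested on TNFdARE mouse 1. Without it Actg1 (0.03), Tmsb4x (0.13), Cfl1 (0.44), Gsn (0.06), Tagln2 (0.07) and Capzb (0.27) were positive and only Actb and Pfn1 negative, and Tmsb4x and Gsn also changed sign with the scaling. With all mice their median was -0.47 beside -0.30 over all tested genes, 966 of which were negative. The interval of Tmsb4x ended at -0.72 and 0.68, while those of Pfn1 and Actg1 reached down to -3.35 and -2.85.

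Between males and females, a comparison that had no part in the choice of genes, 39 of 1534 genes (2.54%) had an unadjusted p under 0.05 and 0 (0%) an adjusted p under 0.05 by limma with genotype in the model. None of the 9 tested actin genes was among the 39. Sex was taken from the labels, which part of the sample descriptions contradicts, and was not checked against sex-linked transcripts. The log2 differences, male minus female, were 0.07 for Actb (SE 0.45), -0.70 for Actg1 (SE 0.89), 0.01 for Tmsb4x (SE 0.35), -1.20 for Pfn1 (SE 0.88) and -0.09 for Cfl1 (SE 1.00). They were 0.70 for Gm6180 (SE 0.76), 0.04 for Gsn (SE 0.56), -0.05 for Tagln2 (SE 0.45) and -0.58 for Capzb (SE 0.87), with adjusted p between 0.95 and 0.99. Without TNFdARE mouse 1, a male, the differences were 1.13 for Cfl1, 0.31 for Actg1, 0.27 for Capzb, 0.18 for Tagln2 and -0.12 for Pfn1.

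**Figure D4:**
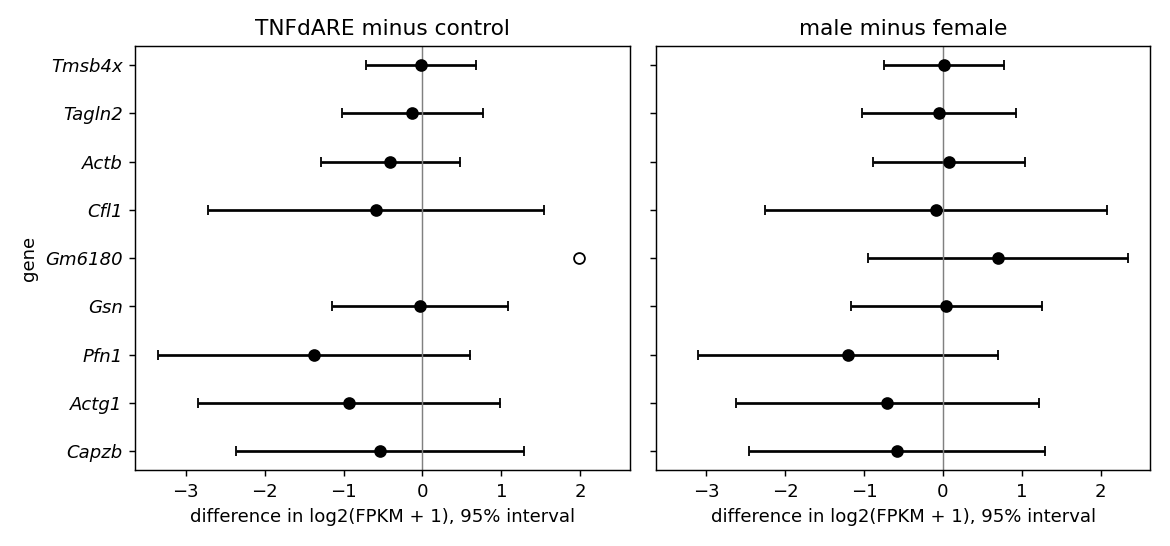
Difference in log2(FPKM + 1) between genotypes (left) and sexes (right) for the 9 tested actin genes, with 95% intervals from limma over 8 mice and genes in order of mean FPKM. Every interval drawn includes 0, and Gm6180, chosen for its genotype difference of 1.99, is drawn there as an open point without an interval.

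Other genes of actin dynamics were read from a list of 122, of which 115 were in the table and 43 were tested. At an unadjusted p under 0.05, 0 had a positive and 0 a negative difference by limma, and 0 had an adjusted p under 0.05. Of the 43, 14 had a positive and 29 a negative log2 difference, with a median of -0.22. Over all 1534 tested genes the median was -0.30 and 966 were negative. By group, with no test, the 4 tested genes of monomer binding had a median of 0.35, the 3 of severing and disassembly 0.22, the 8 of the Arp2/3 complex and its activators, which start branched filaments, -0.69, and the 13 of crosslinking, bundling and stabilization -0.22. The 3 tested capping genes had a median of 0.17, the 2 formins and elongation factors -0.57 and the 6 genes of myosin II -0.15.

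The most abundant gene of each of these groups had the following log2 differences, all with an adjusted p of 0.86 or more by limma. Cap1, a monomer-binding protein that recycles actin, was at 0.43 (SE 0.59), and at 0.06 without control mouse 1. Dstn, the cofilin relative destrin, was at 1.41 (SE 0.86, interval -0.46 to 3.27), with 39.1 FPKM in TNFdARE mouse 1 and at most 7.29 FPKM elsewhere, and was at 0.69 without that mouse. Add1, the capping protein α-adducin, was at 0.21 (SE 0.75), and turned to -0.25 without TNFdARE mouse 1 and to -0.13 without control mouse 4. Arpc3, an Arp2/3 subunit, was at 1.04 (SE 1.13), with 137 FPKM in TNFdARE mouse 1, and was at 0.14 without it and at -0.09 without control mouse 1, where it was listed at 0. The formin Inf2 was at -0.75 (SE 0.59) and the myosin light chain Myl9 at 0.53 (SE 0.38). Zyxin (Zyx) was at -0.23 (SE 0.40), and at 0.07 without TNFdARE mouse 1. Between the sexes, 1 of the 43 had an unadjusted p under 0.05, a share near the 2.54% over all tested genes. Arpc3, named after its value was seen, had a difference, male minus female, of 2.72 (SE 0.87, adjusted p = 0.95 by limma). Its unadjusted limma p was no longer under 0.05 without control mouse 1, at 1.92, or without TNFdARE mouse 1, at 2.19. The other 4 actin isoforms of the list and the 3 genes of transcription by serum response factor (SRF) in the table had a mean below 1 FPKM.

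The genes whose pattern over the 8 mice was most like that of the actin genes were found by the root mean square distance of their centred log2(FPKM + 1) from the mean profile of the 7 actin genes above 0 in every library, over 1525 tested genes. They were Cat at 0.25, Pcp4l1 at 0.28, Agbl5 at 0.28, Stx11 at 0.28 and Zyx at 0.29. The mean profile was lowest in TNFdARE mouse 1 and control mouse 1, at -0.97 and -0.76 on the log2 scale, and highest in TNFdARE mouse 4 and control mouse 2, at 0.51 and 0.50. The actin genes were themselves spread around it. Gsn, Tagln2, Tmsb4x and Actb lay at distances of 0.40, 0.42, 0.48 and 0.54, and Capzb, Actg1, Cfl1, Pfn1 and Gm6180 at 0.89, 1.09, 1.13, 1.32 and 1.45.

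Actin genes are known targets of SRF, which binds the CArG box. Promoter windows from RefSeq (GRCm38.p6), from 250 bases before to 50 after each gene's start, were used for 8 of the 10 genes in 10 windows, without Actb and Gm6180, and were searched on both strands for CC, then 6 bases that are each A or T, then GG. Actg1 held a match, which begins 90 bases before the start in the window chr11:120348446-120348745 (minus strand) and is shown in capitals because it was the only one among these windows.
Actg1 promoter: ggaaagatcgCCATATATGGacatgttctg

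Of all 32851 windows, 535 (1.63%) held a match. The gene with the match, Actg1, differed widely between mice, as given above, and no SRF family gene reached the level tested, so nothing is read from the match about the factor.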

How the data were processed

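RNA of washed platelets was sequenced by the authors as 150 bp paired reads. The deposited table holds a value for every gene in each mouse, which was read here as FPKM because the submitters' processing notes name Cufflinks (mm10) and the columns sum to unequal totals. The unit is inferred. The methods for the spatial data speak of CPM as for the bulk libraries, but no column reaches the total CPM would give. The bulk methods cite the paper of the aligner GSNAP, and the versions and handling of reads that fit several genes are not given in the sources used here. No counts were used, so no count model was run. Groups and sexes come from the labels, and 0 value columns were left unmapped.

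log2(FPKM + 1) was compared with limma 3.58.1 in R 4.3.3 where the mean over the 8 mice reached 1 FPKM, with a trend, two-sided tests and Benjamini-Hochberg adjustment. The test was checked on simulated data. Alternatives are given at the end. The genes, lists and naming rule (all 10 genes, the most abundant gene per group of the pathway list, copies and the 5 most alike genes) were chosen with earlier results of these data known. Copies were sought for the 10 genes with BLAST 2.17.0 on GENCODE M21 transcripts (95% identity over 150 bases), an annotation that holds 42384 of the 43548 identifiers. Python 3.11.15 and matplotlib 3.10.9 were used. The spatial data were not used here, and some items are not reported.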

Additional observations from a re-analysis of the deposited data

Results flagged for a closer look

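In 78 groups of 4 mice examined for 1 value far from the others, 8 such values were found. A rate of 1 in 20 would give 3.9. The groups share genes through ratios and sums, and some hold mostly 0, so the count cannot be read against that rate. Each is given with its gap to the nearest mouse as a share of the range of its group, large by the 95% limit of Dixon's test. Actg1 was at 34.0 FPKM in control mouse 2 and at most 18.2 FPKM in the other control mice, a gap of 0.946 of the range. The Actb copies Gm4750 and Gm8464 were at 6.89 and 4.84 FPKM in control mouse 3, with gaps of 0.938 and 0.940. Summed erythroid markers were at 2196 FPKM in control mouse 3, with a gap of 0.928. Summed neutrophil markers were at 3.66 FPKM in control mouse 2, with a gap of 1 because the other control mice were at 0. They were at 10.3 FPKM in TNFdARE mouse 4, with a gap of 0.943. The summed B cell and T cell markers of TNFdARE mouse 2, at 0.134 and 1.45 FPKM, had gaps of 1 because the other 3 mice were at 0.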

How the results depend on the processing

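No alternative gave a gene with an adjusted p under 0.05 in either comparison. Genes at an unadjusted p under 0.05 between genotypes numbered 36 of 583 with a mean of at least 5 FPKM, 111 with limma sample weights and 46 to 75 with 1 mouse left out. Between sexes they numbered 15, 105 and 15 to 56, the lowest without control mouse 1. After quantile normalization the genotype calls split into 34 higher and 25 lower, against 27 and 42. They split into 74 and 37 with sample weights, 8 and 41 without control mouse 1, 26 and 20 without TNFdARE mouse 4, and 51 and 13 with only TNFdARE mice 2 and 3. Other pathway genes called lower numbered 1 without the filter (Nckap1) and 0 to 2 with 1 mouse left out (Nckap1 without control mouse 1, Nckap1 and Twf1 without control mouse 2), named after their values were seen.

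Log2 differences of the actin genes between genotypes that changed sign, none of them past the threshold, were as follows. With sample weights they were 0.24 for Tmsb4x, 0.067 for Cfl1, 0.16 for Tagln2 and 0.20 for Capzb. With only TNFdARE mice 2 and 3, a choice made after seeing the data because the other TNFdARE libraries held the fewest genes, they were 0.24, 0.57, 0.097 and 0.67. Median-of-ratios scaling gave 0.045 for Tmsb4x and 0.036 for Gsn, and quantile normalization 0.12 for Gsn. With 1 mouse left out the range was -1.64 to 0.031 for Actg1, -0.13 to 0.16 for Tmsb4x, -1.35 to 0.44 for Cfl1, -0.27 to 0.21 for Gsn, -0.29 to 0.068 for Tagln2 and -1.05 to 0.27 for Capzb. Of the named pathway genes, sample weights gave -0.056 for Arpc3, -0.025 for Add1 and 0.061 for Zyx, and TNFdARE mice 2 and 3 alone gave -0.34 for Add1 and 0.015 for Zyx, each a change of sign. The difference of Gm6180, whose sign the choice of the gene fixes, ran from 0.90 with mice 2 to 4 of each group to 2.36, and that of its sum with Cfl1 from 0.12 to 1.33. Other differences changed in size without a change of sign. With 0.1 or 5 in place of 1 added to each value, they were -2.20 or -0.82 for Pfn1. Under the same choices they were -1.24 or -0.51 for Actg1 and -1.29 or -0.19 for Capzb. Sample weights gave -0.48 for Pfn1 and -0.37 for Actg1.

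Between sexes, sample weights gave 0.64 for Actg1, 0.038 for Pfn1, 0.21 for Cfl1, -0.33 for Gm6180 and 0.079 for Tagln2. Quantile normalization gave -0.013 for Actb and 0.24 for Cfl1, median-of-ratios scaling -0.030 for Actb, -0.092 for Tmsb4x and -0.056 for Gsn, and a pseudocount of 5 gave 0.069 for Cfl1. With 1 mouse left out the range was -0.13 to 0.19 for Actb, -1.24 to 0.31 for Actg1, -0.20 to 0.19 for Tmsb4x, -1.02 to 1.13 for Cfl1, -0.17 to 1.29 for Gm6180, -0.23 to 0.35 for Gsn, -0.25 to 0.18 for Tagln2 and -1.08 to 0.27 for Capzb. The cause of these changes was not tested.

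With the replicate block, which cannot move the log2 differences in this balanced design, 64 genes had an unadjusted p under 0.05 between genotypes. Deviations of same-numbered mice correlated at 0.06, -0.06, 0.02 and -0.07, and 1 of 4 pairs was best with its own number, so the numbers were not used to pair the mice. The library names of control mouse 1 and TNFdARE mouse 1, and of control mouse 4 and TNFdARE mouse 3, share a number whose meaning the labels do not give, and these deviations correlated at 0.06 and 0.04.

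With 4 mice a group and unknown depth, wide intervals for Pfn1, Cfl1 and Actg1 leave several-fold differences undetected. How reads that fit near-identical copies were assigned is not given in the sources used here. Its part in the values of these copies was not tested.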
